A study of Rattus norvegicus with 9 samples.

Results

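Complex I is the NADH dehydrogenase that opens the mitochondrial respiratory chain, and its nuclear genes carry symbols that start with Nduf. All protein-coding genes of the deposited count table with such a symbol were taken, which gave 45 of 37991 genes. They fell into 38 genes for subunits and their relatives and 7 Ndufaf genes for assembly factors, which build the complex and leave it when it is finished. By role under the deposited names, 7 encoded core subunits, 10 accessory subunits of the peripheral arm and 18 accessory subunits of the membrane arm. Ndufa4 and Ndufa4l2 made a family of their own, since Ndufa4 is now counted as a subunit of complex IV, and Ndufa10l1 was not placed. All 45 passed the filter on low counts that left 18047 genes to test.

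RNA was sequenced from medial prefrontal cortex. The rats were Wistar Kyoto, an inbred strain with depression-like behaviour that serves as a model of that disorder. Control rats had no treatment, K4 rats received a compound known here only by that code through an intravenous cannula for 7 days, and Ketamine rats received the NMDA receptor antagonist ketamine under the skin for 7 days. Both drugs were then withheld for 7 days, and all tissue was labelled day 15, with 3 libraries per group. The labels give no dose, vehicle, sex or age, no cannula or injection for the Control rats and no statement that each library is a separate animal, so p-values measure only the spread between these libraries. Drug, route and handling therefore cannot be told apart in either comparison with Control. Control replicate 2 stood apart from the other libraries in its share of mitochondrially encoded counts, the highest of the 9. It also stood apart in several markers of cell types, given below. Counts of called members without this library are given with the mitochondrial share.

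Complex I takes electrons from NADH and passes them through a flavin and a chain of iron-sulfur clusters to ubiquinone, while its membrane arm pumps protons out of the matrix. The core subunits that do this work in the peripheral arm are encoded in the nucleus, and those of the membrane arm in the mitochondrial genome. Accessory subunits surround the core, and neurons depend heavily on the chain for ATP.

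Many nuclear respiratory genes have promoters with sites for nuclear respiratory factor NRF1, for ETS family factors or for YY1, so the start regions of the members were searched for 4 sets of letters. RefSeq windows of 300 bases on build GRCr8, from 250 before to 50 after the start, were found for 39 of the 45 members. The stretches that follow are shown because 3 carry one of the motifs before the start, 1 carries one after it, and that of Ndufb3, the member with the smallest p after ketamine, carries none. Each is written 5′ to 3′ on the strand of the gene, with the matched letters in capitals.
Ndufa11, chr9:1637494-1637613, plus strand, NRF1 letters at 2 overlapping positions: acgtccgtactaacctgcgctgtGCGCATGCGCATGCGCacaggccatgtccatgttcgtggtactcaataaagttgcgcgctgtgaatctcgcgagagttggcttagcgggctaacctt
Ndufaf5, chr3:147961492-147961611, plus strand, NRF1 letters: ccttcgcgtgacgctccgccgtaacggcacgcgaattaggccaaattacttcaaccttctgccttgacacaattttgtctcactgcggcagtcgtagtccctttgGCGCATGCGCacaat
Ndufb7, chr19:41477292-41477411, minus strand, ETS letters: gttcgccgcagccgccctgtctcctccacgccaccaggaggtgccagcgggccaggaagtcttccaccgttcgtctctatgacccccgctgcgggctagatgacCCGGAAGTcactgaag
Ndufs7, chr7:10110479-10110558, minus strand, YY1 letters after the start: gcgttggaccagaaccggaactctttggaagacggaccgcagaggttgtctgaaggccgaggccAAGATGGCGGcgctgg
Ndufb3, chr9:67623297-67623416, plus strand, no match: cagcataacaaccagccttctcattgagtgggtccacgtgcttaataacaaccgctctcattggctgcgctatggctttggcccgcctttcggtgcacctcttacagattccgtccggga
These stretches run from 120 bases before the start to the base before it, except that of Ndufs7, which runs from 60 before to 20 after.

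The NRF1 letters, GCGCA then any base then GCGC, stood in the windows of 8 of 39 members (20.5%) and of 4.25% of the 33469 windows in the table. They were found in Ndufa5, Ndufa11, Ndufa12, Ndufb4, Ndufs5, Ndufv3, Ndufaf4 and Ndufaf5. The YY1 letters, AAGATG followed by GCGG, stood in 6 of 39 (15.4%) against 0.980% of all windows, in Ndufa2, Ndufa6, Ndufa9, Ndufb8, Ndufs4 and Ndufs7, and began between 5 and 27 bases after the start in each. The ETS letters CCGGAAGT stood in 2 of 39 (5.13%) against 3.81%, in Ndufb7 and Ndufs1, and the oestrogen-related receptor letters TCAAGGTCA in 0 of 39 against 0.433%. At least 1 of the 4 motifs was present in 16 of 39 members (41.0%) and in 8.86% of all windows. A match describes letters and is not a site of binding. All 4 were searched on both strands, the NRF1 letters can match both at 1 place, and no member's window held more than 1 of the 4 motifs.

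Levels of different genes were compared per transcript length, as the TPM that the authors deposited. In Control cortex the most abundant member was Ndufa4 at 276 ± 42.02 TPM (SD, n = 3), followed by 4 accessory subunits of the membrane arm. Ndufb9 stood at 267 ± 8.43 TPM, Ndufb8 at 245 ± 26.6, Ndufa8 at 244 ± 8.24 and Ndufb4 at 235 ± 31.1. Each of these 5 genes overlapped the next in order, although every library of Ndufb9 lay above all those of Ndufa8 and Ndufb4, and a gap without overlap set Ndufb4 apart from the next gene, Ndufa5 at 175 ± 27.4.

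From Ndufa5 down to Ndufa1 (70.9 ± 3.45 TPM, uncertain as described below) the other subunit genes formed an unbroken series in which every gene overlapped its neighbour. The 7 core subunits lay inside it, with Ndufs8 the lowest of them at 80.5 ± 13.5 TPM and with a median of 116 TPM beside 109 for the membrane accessory and 95.1 for the peripheral accessory subunits. A gap without overlap followed, and all 7 assembly factors came next, from Ndufaf5 at 34.1 ± 5.04 TPM to Ndufaf6 at 10.8 ± 2.48, with a median of 25.1. Transcripts of these factors were less abundant than those of 35 of the 38 other members. Among the assembly factors, Ndufaf3 (25.1 ± 4.87) and Ndufaf1 (17.1 ± 3.22) did not overlap, whereas the other neighbours did.

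The order ended with 3 further genes. Ndufa10l1, a relative of Ndufa10, stood at 8.83 ± 1.34 TPM, and Ndufa4l2, a paralogue of Ndufa4 known as a hypoxia-induced gene, at 4.71 ± 0.662. The gene that the deposited table calls Ndufs6 was lowest at 2.75 ± 0.423 TPM. The later RefSeq table names this gene Ndufs6-ps1, a pseudogene, as it is called from here on, and gives the name Ndufs6, a zinc-binding accessory subunit, to LOC679739, which stood at 101 ± 5.73 TPM in Control, among the other subunits.

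**Figure D1:**
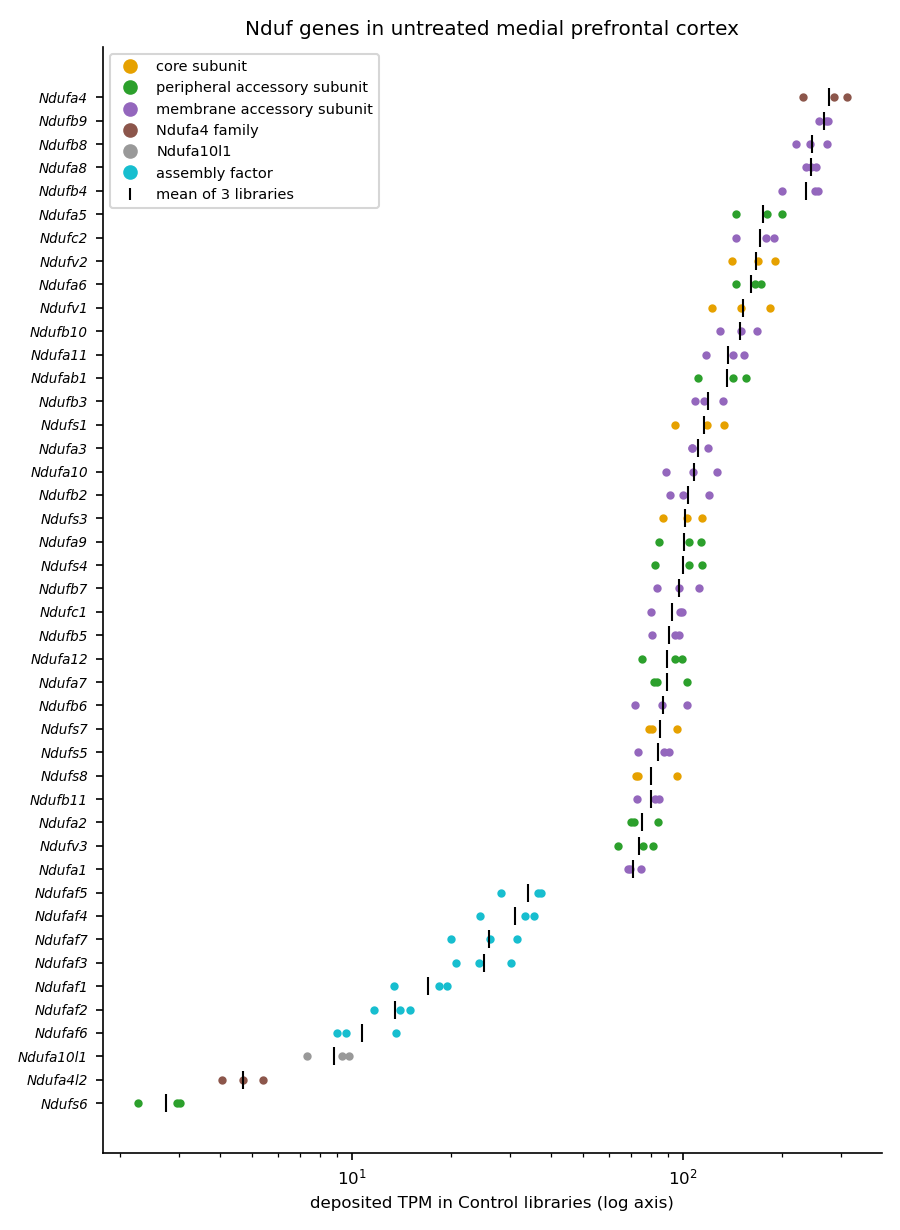
Deposited TPM of 44 of the 45 Nduf genes in the 3 Control libraries (points, log axis; bar, mean), ordered by mean and coloured by role. Subunit genes from Ndufa4 (276 TPM) to Ndufa1 (70.9) stand apart from the assembly factors (34.1 to 10.8), and Ndufs6 is the gene now named Ndufs6-ps1.

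Changes between groups were tested on the deposited counts and are given as normalised counts (CPM, counts scaled to library size). After K4, 3 of the 45 members were called higher than in Control and 0 lower, against a background of 2.27% of all tested genes called higher and 3.8% lower (6.07% in either direction). The called members were Ndufb2, a small subunit of the membrane arm, Ndufa4, and Ndufa2, an accessory subunit at the NADH-oxidising end of the peripheral arm. Their fold changes ran from 1.201 to 1.27. The median log2 fold change of all 45 was 0.12, beside −0.0046 over all tested genes. Of the 45, 40 were positive and 5 negative, where 49.3% of all tested genes were positive. In tissue RNA, fewer cells of a type and less RNA per cell cannot be told apart.

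Ndufb2 stood at 24.2, 25.6 and 26.6 CPM in the Control libraries, at 30.3, 33.6 and 30.5 in those of K4 and at 30.5, 33.3 and 31.97 in those of Ketamine. All 3 K4 libraries and all 3 Ketamine libraries lay above every Control library. Ndufb2 rose after K4 (log2 change 0.30, SE 0.073, adjusted p = 0.031 by edgeR) and after ketamine (log2 change 0.33, SE 0.073, adjusted p = 0.0097 by edgeR). The 2 comparisons share the Control libraries, so they are not independent.

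Ndufa2 stood at 20.7, 24.6 and 22.9 CPM in the Control libraries, at 28.3, 30.8 and 27.2 in those of K4 and at 27.2, 32.7 and 31.6 in those of Ketamine, with Control and drug libraries again separate. Its rise after K4 (log2 change 0.34, SE 0.091, adjusted p = 0.045 by edgeR) was the largest of the 3 in fold, and after ketamine it was called as well (log2 change 0.42, SE 0.091, adjusted p = 0.0080 by edgeR). Ndufa4 stood at 118, 111 and 119 CPM in the Control libraries, at 132, 142 and 145 in those of K4 and at 140.1, 160.3 and 153 in those of Ketamine, with no overlap. It rose after K4 (log2 change 0.26, SE 0.065, adjusted p = 0.034 by edgeR) and after ketamine (log2 change 0.38, SE 0.065, adjusted p = 0.0025 by edgeR), while its paralogue Ndufa4l2, at 2.05, 3.17 and 2.23 CPM in Control and 2.02, 1.59 and 2.16 in K4, was not called (log2 change −0.37, SE 0.22, adjusted p = 0.35 by edgeR).

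None of the 7 core subunits and none of the 7 assembly factors was called after K4 by edgeR. At an unadjusted p below 0.05 there were 2 core subunits, Ndufs7 (0.25) and Ndufv1 (0.16), and 1 assembly factor, Ndufaf5 (0.26), while 23.5% of all tested genes were below it in either direction. Ndufb7 was the uncalled member nearest to the threshold (log2 change 0.25, SE 0.072, adjusted p = 0.054 by edgeR). The negative values belonged to Ndufa4l2, Ndufaf1 (−0.19), Ndufaf4 (−0.15), Ndufc1 (−0.11) and Ndufs6-ps1 (−0.045). In 18 members every K4 library lay above every Control library, against 13.3% of all tested genes, and in 0 every K4 library lay below, against 14.2%.

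The 3 calls after K4 rested on few libraries. None remained without Control replicate 1, without any 1 of the K4 replicates or when only the Control and K4 libraries were fitted, 1 remained without Ketamine replicate 3, and 6 members were called without Control replicate 3. With the correction for transcript length described below, 0 members were called and the median fell to 0.028.

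After ketamine, 20 of the 45 members were called higher than in Control and 0 lower, against 6.95% of all tested genes called higher and 9.75% lower (16.7% in either direction). They came from every role: 3 of 7 core subunits, 5 of 10 peripheral accessory subunits, 9 of 18 membrane accessory subunits, Ndufa4 and 2 of 7 assembly factors. The peripheral counts include Ndufs6-ps1, placed there by its deposited name. The changes were small, with a median log2 fold change of 0.20 over all 45, beside −0.0023 over all tested genes. Of the 45, 42 were positive and 3 negative, where 49.7% of all tested genes were positive. In 28 members every Ketamine library lay above every Control library, against 16.9% of all tested genes, and in 0 every one lay below, against 18.1%.

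**Figure D2:**
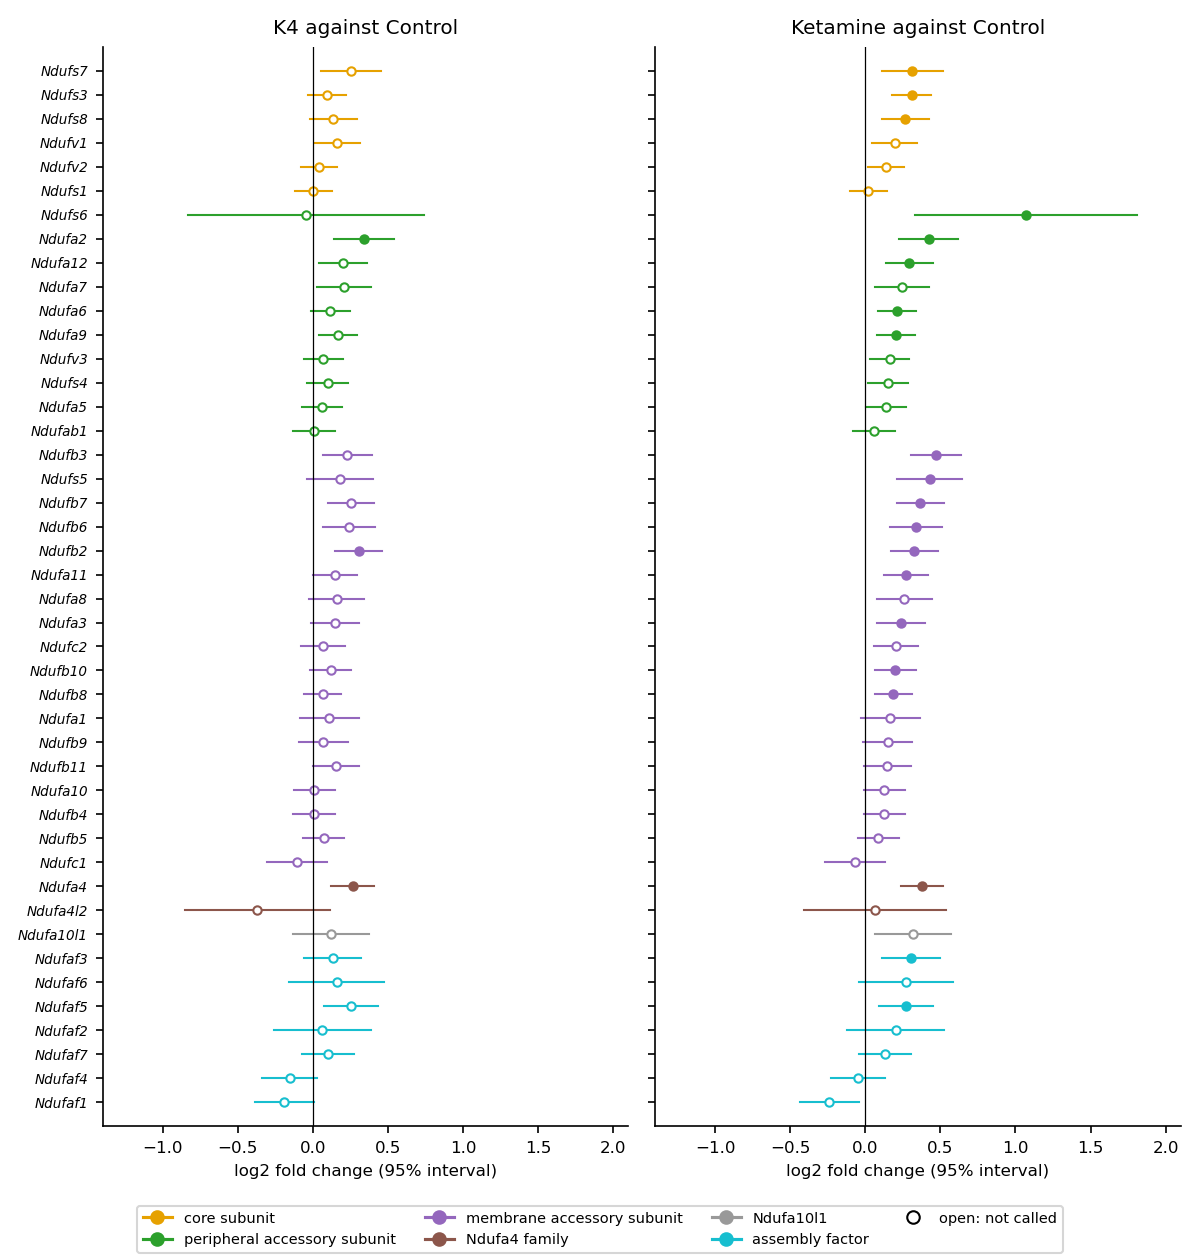
Log2 fold change of 44 of the 45 members against Control after K4 (left) and after ketamine (right), with 95% intervals from edgeR, ordered by role and coloured by it; filled points were called at an adjusted p below 0.05. Filled points number 3 on the left and 20 on the right, all above 0, and Ndufs6 is the gene now named Ndufs6-ps1.

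Among the core subunits, Ndufs3, a scaffold of the ubiquinone-reducing module, gave the firmest change. It stood at 57.3, 56.6 and 58.4 CPM in the Control libraries, at 59.8, 61.4 and 62.6 in those of K4 and at 68.5, 76.2 and 68.6 in those of Ketamine. The 3 Ketamine libraries lay above all Control and all K4 libraries (log2 change 0.31, SE 0.059, adjusted p = 0.0045 by edgeR, 95% interval 0.18 to 0.44).

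Ndufs7, which holds the last iron-sulfur cluster before ubiquinone, stood at 30.6, 36.7 and 36.2 CPM in the Control libraries, at 38.8, 42.6 and 41.97 in those of K4 and at 38.01, 48.4 and 42.2 in those of Ketamine (log2 change 0.31, SE 0.094, adjusted p = 0.037 by edgeR). Ndufs8, which carries further clusters of the same chain, stood at 32.2, 36.7 and 36.9 CPM in the Control libraries, at 40.8, 39.2 and 36.3 in those of K4 and at 41.3, 43.5 and 42.6 in those of Ketamine (log2 change 0.27, SE 0.072, adjusted p = 0.023 by edgeR). In both, every Ketamine library exceeded every Control library, and Ndufs8 overlapped between Control and K4.

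Ndufv1, Ndufv2 and Ndufs1 were not called after ketamine. Ndufv1, which binds NADH and the flavin, stood at 117, 112 and 131 CPM in the Control libraries, at 136, 135 and 132 in those of K4 and at 135, 148 and 129.6 in those of Ketamine, with overlap between Ketamine and Control (log2 change 0.20, SE 0.070, adjusted p = 0.073 by edgeR). Ndufv2, its iron-sulfur partner, stood at 76.2, 73.9 and 78.5 CPM in the Control libraries, at 80.4, 79.3 and 75.4 in those of K4 and at 83.1, 80.8 and 87.3 in those of Ketamine (log2 change 0.14, SE 0.056, adjusted p = 0.12 by edgeR).

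Ndufs1, the largest core subunit and the longest transcript among the members (2.82 kb), stood at 155, 145 and 160.3 CPM in the Control libraries, at 152, 158 and 150.2 in those of K4 and at 154, 159.9 and 152 in those of Ketamine. The groups overlapped fully, and its interval after ketamine was narrow around 0 (log2 change 0.021, SE 0.057, adjusted p = 0.84 by edgeR, 95% interval −0.10 to 0.14).

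In the peripheral arm, Ndufa2, Ndufa12 (0.29), Ndufa6 (0.21) and Ndufa9 (0.20) rose after ketamine, as did Ndufs6-ps1, placed there only by its deposited name. Ndufa6 anchors the acyl carrier protein Ndufab1, whose own transcript stood at 49.5 ± 3.01 CPM in Control and 51.5 ± 2.14 in Ketamine (SD, n = 3) and was not called (0.057, 95% interval −0.082 to 0.20). The 4 other uncalled genes, Ndufa5, Ndufa7, Ndufs4 and Ndufv3, had values from 0.14 to 0.25.

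Ndufs6-ps1 had the largest fold change among the members, but from 10 to 48 counts per library. It stood at 0.556, 0.494 and 0.519 CPM in the Control libraries, at 0.505, 0.672 and 0.338 in those of K4 and at 0.917, 0.997 and 1.39 in those of Ketamine, so that all Ketamine libraries exceeded all others (log2 change 1.07, SE 0.34, adjusted p = 0.048 by edgeR). The call was lost in 7 of the 9 fits that each left out 1 library. LOC679739, the gene named Ndufs6 in the later RefSeq table, stood at 27.7, 30.03 and 26.5 CPM in the Control libraries, at 28.7, 33.4 and 28.8 in those of K4 and at 32.9, 32.9 and 37.2 in those of Ketamine (log2 change 0.29, SE 0.084, adjusted p = 0.032 by edgeR), and was not called with the length offset (adjusted p by edgeR = 0.39).

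In the membrane arm the 9 called genes were Ndufb2, Ndufb3, Ndufb6 (0.34), Ndufb7, Ndufb8 (0.19), Ndufb10 (0.20), Ndufa3 (0.24), Ndufa11 (0.27) and Ndufs5 (0.43). Ndufb3 had the smallest p of all members. It stood at 43.8, 47.8 and 46.1 CPM in the Control libraries, at 50.2, 60.2 and 51.2 in those of K4 and at 60.8, 62.00 and 67.8 in those of Ketamine, and the 3 groups did not overlap at all (log2 change 0.47, SE 0.077, adjusted p = 0.0020 by edgeR, 95% interval 0.30 to 0.64). The K4 libraries lay between the others, and K4 against Control was not called (log2 change 0.23, SE 0.077, adjusted p = 0.093 by edgeR).

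Ndufb7, a subunit on the intermembrane-space face of the arm, stood at 27.6, 27.6 and 29.2 CPM in the Control libraries, at 31.7, 36.7 and 32.2 in those of K4 and at 36.1, 37.2 and 35.4 in those of Ketamine. Its Control libraries lay below all others (log2 change 0.37, SE 0.072, adjusted p = 0.0049 by edgeR). Of the 9 uncalled genes of the membrane arm, 8 were positive and Ndufc1 was not: it stood at 31.2, 29.8 and 29.1 CPM in the Control libraries, at 24.3, 29.7 and 29.9 in those of K4 and at 26.2, 31.2 and 28.6 in those of Ketamine, with full overlap (log2 change −0.068, SE 0.091, adjusted p = 0.66 by edgeR).

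**Figure D3:**
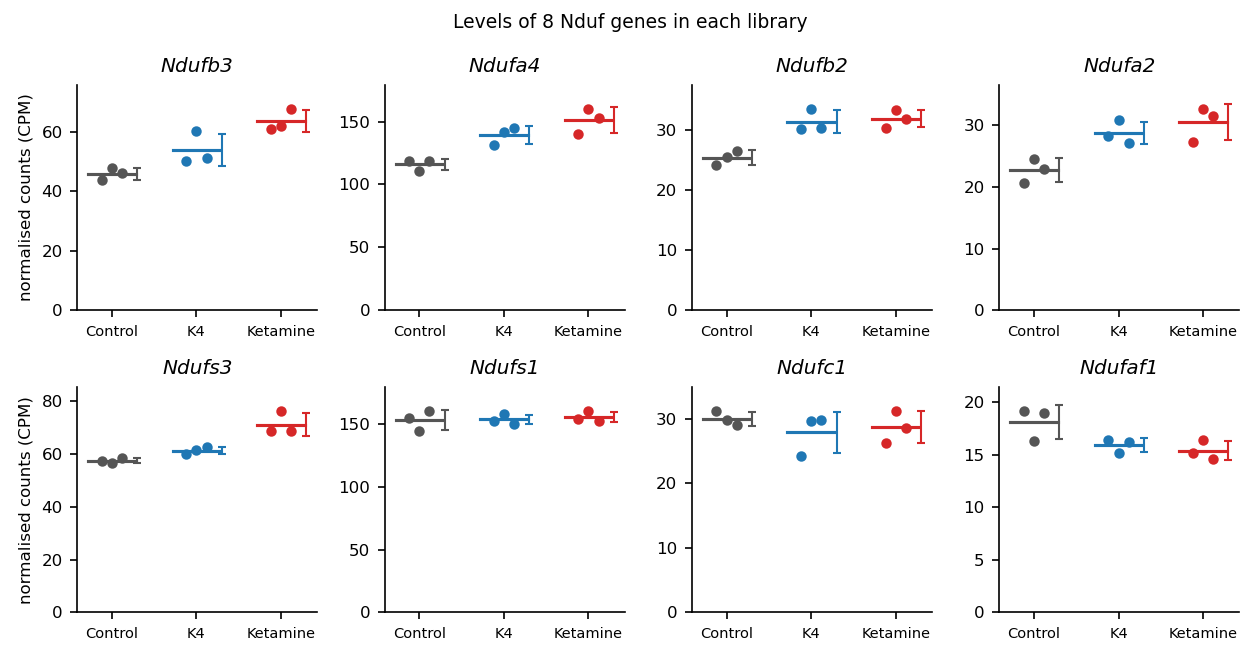
Normalised counts (CPM, TMM-scaled) of 8 members in each of the 9 libraries (points), with the group mean (line) and SD (bar, n = 3). Ndufb3, Ndufa4, Ndufb2, Ndufa2 and Ndufs3 are higher in every Ketamine library than in any Control library, whereas Ndufs1, Ndufc1 and Ndufaf1 overlap.

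Of the 7 assembly factors, 5 were positive and 2 negative after ketamine, with 2 called higher and 0 lower. Ndufaf3, which acts with Ndufaf4 on the early ubiquinone module, stood at 18.4, 18.2 and 21.1 CPM in the Control libraries, at 21.1, 20.4 and 21.8 in those of K4 and at 23.4, 25.96 and 21.99 in those of Ketamine and rose after ketamine (log2 change 0.30, SE 0.088, adjusted p = 0.032 by edgeR). Its partner Ndufaf4 stood at 36.1, 30.7 and 35.4 CPM in the Control libraries, at 27.8, 32.8 and 31.3 in those of K4 and at 33.4, 31.1 and 34.3 in those of Ketamine and overlapped between groups (log2 change −0.049, SE 0.084, adjusted p = 0.74 by edgeR). Ndufaf5, which hydroxylates Ndufs7, stood at 21.1, 18.9 and 19.7 CPM in the Control libraries, at 24.4, 22.7 and 24.2 in those of K4 and at 21.9, 26.00 and 24.2 in those of Ketamine and rose after ketamine (log2 change 0.27, SE 0.083, adjusted p = 0.042 by edgeR), with a similar value after K4 that was not called (log2 change 0.26, SE 0.083, adjusted p = 0.086 by edgeR).

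Ndufaf1, a chaperone of the membrane arm, had the lowest value of all members after ketamine. It stood at 19.2, 16.3 and 19.02 CPM in the Control libraries, at 16.4, 15.2 and 16.2 in those of K4 and at 15.2, 16.4 and 14.6 in those of Ketamine, and only Control replicate 2 reached the range of the Ketamine libraries (log2 change −0.24, SE 0.092, adjusted p = 0.092 by edgeR). Without Control replicate 2, Ndufaf1 was called lower after ketamine (log2 change −0.31, adjusted p = 0.030 by edgeR). The remaining Ndufaf2, Ndufaf6 and Ndufaf7 were positive and not called, from 0.13 to 0.27.

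The ketamine count also depended on single libraries. It was 4 members without Ketamine replicate 2, 8 without Ketamine replicate 3 and 10 without Control replicate 1, and 12 when only the Control and Ketamine libraries were fitted. The 4 members called in every one of the 9 fits that left out a library were Ndufb3, Ndufs3, Ndufb7 and Ndufa4. The median over the 45 stayed between 0.195 and 0.230 in those fits.

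Most Nduf transcripts are short, and the libraries differed in how counts depended on length. Length was taken as the number of kilobases implied by the deposited counts and FPKM, with a median of 0.859 kb over the members and 2.93 kb over all tested genes. The slope of log2 CPM on log2 length, taken on deviations from each gene's mean so that only differences between libraries have meaning, was 0.041 to 0.062 per doubling in Control, −0.018 to 0.0019 in K4 and −0.059 to −0.017 in Ketamine. Of all 1332 tested genes under 1 kb, 4.5% were called higher after K4 and 18.7% after ketamine, with medians of 0.15 and 0.22. In this class 71.5% of genes were positive after K4 and 77.6% after ketamine, beside 27 and 28 of the 29 members under 1 kb.

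Set beside those short genes, the members under 1 kb had medians of 0.14 after K4 and 0.24 after ketamine, with 3 and 16 of 29 called higher. The 16 members of 1 kb and over had medians of 0.10 and 0.15, with 0 and 4 called higher, beside medians of 0.052 and 0.087 over all tested genes of 1 to 3 kb, of which 3.2% and 10.6% were called higher. Across the 45 members, Pearson's r between log2 fold change and length was −0.28 after K4 (Spearman's rho −0.21) and −0.47 after ketamine (rho −0.40). These describe genes that share the same libraries and are not independent replicates.

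A fit that removed the length trend from each library left 1 member called after ketamine and 0 after K4, where 3.37% and 0.875% of all tested genes were called higher. No member was called lower, against 4.06% and 1.09% of all tested genes. The member was Ndufb3, at 0.31 with the offset (adjusted p by edgeR = 0.028). Next came Ndufa4 at 0.22 (0.061 by the same adjusted p), Ndufa2 at 0.25 (0.088), Ndufaf1 at −0.27 (0.093) and Ndufs3 at 0.18 (0.098).

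With the offset the median of the members was 0.028 after K4 (27 positive, 18 negative) and 0.078 after ketamine (33 positive, 12 negative). Over all 18047 tested genes it was 0.0064 after K4 (9256 positive) and 0.027 after ketamine (9910 positive). Members under 1 kb had medians of 0.023 and 0.068, beside 0.035 and 0.058 over all tested genes under 1 kb. The length trend was fitted on the same libraries that are compared, and whether it came from the tissue or from the preparation was not tested. The 12 negative after ketamine were Ndufaf1, Ndufaf4, Ndufa4l2, Ndufab1, Ndufc1, Ndufb4, Ndufb5, Ndufb9, Ndufb11, Ndufa1, Ndufa5 and the core subunit Ndufv2.

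**Figure D4:**
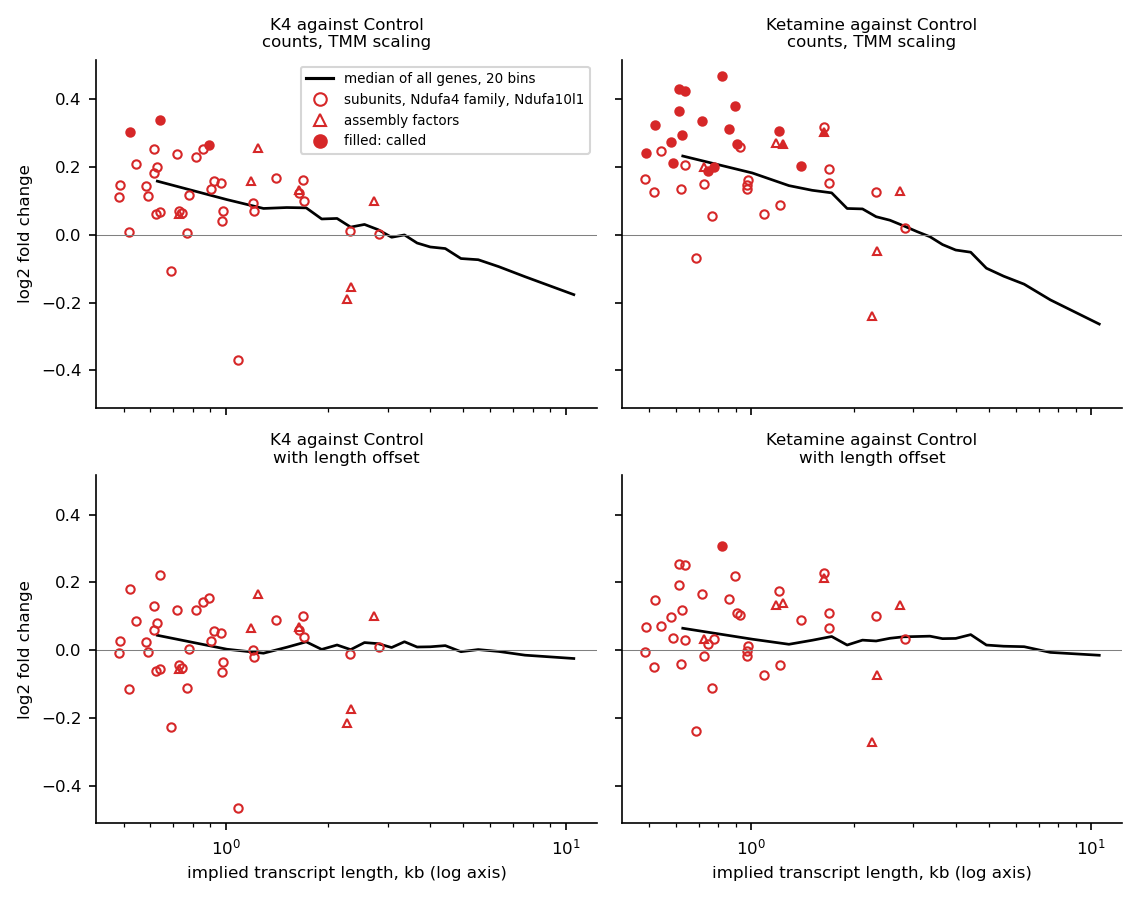
Log2 fold change against implied transcript length (log axis) of 43 members, without Ndufs6-ps1, with the median of all tested genes in 20 length bins as a line; upper panels without and lower panels with the length offset, filled points called. The line falls with length in the upper panels and lies near 0 in the lower ones, where Ndufb3 after ketamine is the only filled point.

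As a share of all counts the 45 genes took 0.196% to 0.221% in Control, 0.239% to 0.245% in K4 and 0.246% to 0.269% in Ketamine, without overlap between Control and either drug. Mitochondrially encoded protein genes took 11.6% to 19.0% of counts in Control, 10.4% to 11.4% in K4 and 10.6% to 11.8% in Ketamine, with Control replicate 2 the highest. With those genes taken out of the totals, the members' share was 0.242% to 0.250% in Control, 0.268% to 0.277% in K4 and 0.278% to 0.302% in Ketamine. Leaving out Control replicate 2 gave 4 members called higher after K4, and 18 higher and 1 lower after ketamine.

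The 7 mitochondrially encoded subunits of complex I went the other way. After K4, ND4 (−0.72), ND4L (−0.87), ND5 (−0.78) and ND6 (−0.87) were called lower, against 3.8% of all tested genes. The other 3 were negative and not called, with a median of −0.72 over the 7. After ketamine, against the shared Control libraries, ND4, ND4L, ND5 and ND6 stood at −0.65, −0.79, −0.74 and −0.76. All of these were called lower by edgeR, against 9.75% of all tested genes, and the median over the 7 was −0.65. ND5 stood at 7045, 10017 and 5544 CPM in the Control libraries, at 4407, 4558 and 4178 in those of K4 and at 4837, 4191 and 4535 in those of Ketamine. No drug library reached the Control range of ND5, but the Control libraries themselves spread widely. Such a separation held for 6 of the 7 genes after K4 and 5 after ketamine, against 14.2% and 18.1% of all tested genes. ND3 overlapped in both comparisons, at 1103 to 1975 CPM in Control, 1019 to 1148 in K4 and 1072 to 1233 in Ketamine.

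Counts of the 7 mitochondrial genes per count of the 45 nuclear genes ranged from 14.3 to 26.7 in Control, 11.002 to 12.01 in K4 and 10.04 to 12.6 in Ketamine. The library kit selects polyadenylated RNA, and how far the mitochondrial counts follow their abundance in tissue was not tested. With the length offset 6 of the 7 were called lower after K4 and 7 of 7 after ketamine, against 1.09% and 4.06% of all tested genes.

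**Figure D5:**
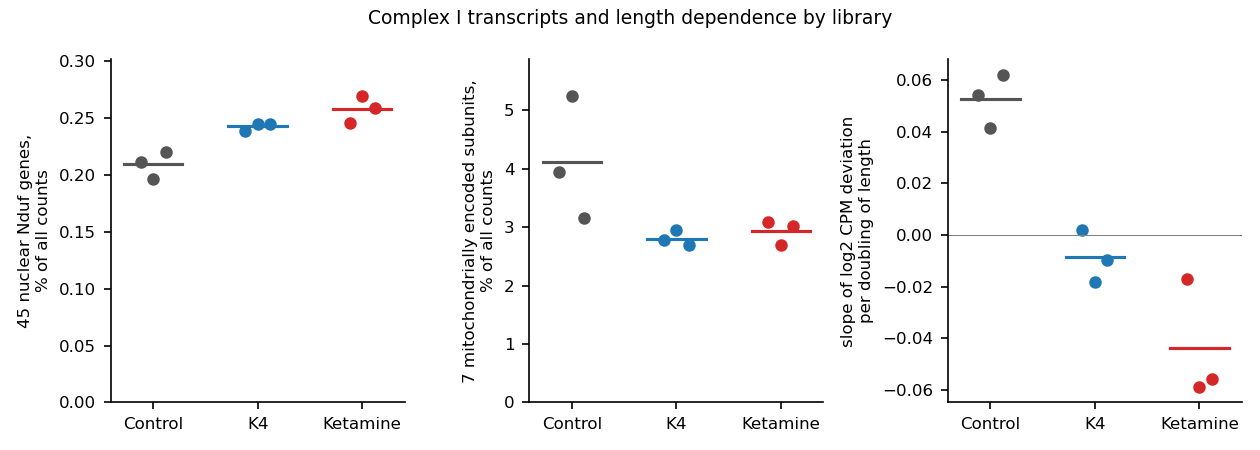
For each library (points; line, group mean of 3), the share of all counts in the 45 nuclear Nduf genes, the share in the 7 mitochondrially encoded subunits, and the slope of log2 CPM deviation per doubling of transcript length. Control libraries have the lowest nuclear shares (0.196% to 0.221%), the highest mitochondrial shares and the highest slopes.

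Other genes of the pathway followed unevenly. The 17 names of further assembly factors listed include both Atp5sl and Dmac2, its later name. Of them 14 were matched and tested, and 0 were called after K4 (edgeR, 4 at an unadjusted p below 0.05, beside the 23.5% of all tested genes). After ketamine 3 of 14 rose, beside 6.95% of all tested genes: Ecsit (0.39), Tmem186 (0.30) and Ociad2 (0.38), and with the length offset 0 did. Of 11 regulators of respiratory genes, 0 were called after K4 (5 at an unadjusted p below 0.05, beside the same 23.5%).

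After ketamine, the coactivator Ppargc1b fell from 8.62 ± 0.675 to 5.51 ± 0.423 CPM (SD, n = 3; log2 change −0.65, SE 0.12, adjusted p = 0.0036 by edgeR) and stayed called with the length offset. The ETS factor Gabpa fell by 0.30 (adjusted p by edgeR = 0.028), a call lost with the length offset (adjusted p by edgeR = 0.24), and its partner Gabpb1 rose (log2 change 0.26, SE 0.082, adjusted p = 0.049 by edgeR), a call that held with it. Nrf1, whose letters stand in the windows of Ndufa11 and Ndufaf5 printed above, stood at 9.59, 11.8 and 10.6 CPM in the Control libraries, at 13.2, 11.9 and 13.1 in those of K4 and at 15.1, 12.1 and 12.9 in those of Ketamine, and was not called (log2 change 0.33, SE 0.11, adjusted p = 0.064 by edgeR), although it was with the length offset (adjusted p by edgeR = 0.035). Yy1 stood at 19.98 ± 0.594 CPM in Control, 19.78 ± 0.628 in K4 and 19.02 ± 1.00 in Ketamine (SD, n = 3) and was not called. Of the 6 members with YY1 letters, 5 were called higher after ketamine, and of the 8 with NRF1 letters 4 were, beside 19 of all 39 with a window.

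Genes that later received Nduf names, and Ndufb1, which the table does not label protein-coding, lay outside the rule and were tested in the same fit. LOC100911483, now Ndufa13, a subunit of the membrane arm, stood at 56.5, 57.97 and 52.2 CPM in the Control libraries, at 63.3, 67.95 and 64.7 in those of K4 and at 74.5, 78.7 and 76.3 in those of Ketamine, without overlap between any of the groups. It rose after K4 (log2 change 0.23, SE 0.060, adjusted p = 0.039 by edgeR) and after ketamine (log2 change 0.46, SE 0.060, adjusted p = 0.00060 by edgeR), and with the length offset only after ketamine (0.29, adjusted p by edgeR = 0.0089). Ndufb1, labelled a non-coding RNA in the table, stood at 15.8 ± 1.27 CPM in Control and 19.6 ± 1.08 in Ketamine (log2 change 0.31, SE 0.086, adjusted p = 0.028 by edgeR).

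LOC690871, now the assembly factor Ndufaf8, stood at 8.99 ± 0.930 CPM in Control and 12.01 ± 0.350 in Ketamine (log2 change 0.42, SE 0.11, adjusted p = 0.019 by edgeR). With the length offset neither Ndufb1 (adjusted p by edgeR = 0.33) nor Ndufaf8 (adjusted p by edgeR = 0.18) was called. With the later names in place of the deposited ones, 23 of 48 genes were called higher after ketamine and 4 after K4. The later RefSeq table also names pseudogenes of Ndufs5, Ndufs6 and Ndufa13 that were counted as genes of their own. LOC108348144, which that table does not name, had 647, 686 and 634 counts in the Control libraries, beside 645, 688 and 624 for Ndufa1. Whether the counting split reads between such entries and the full genes was not tested. These levels, that of Ndufa1 included, are therefore uncertain.

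K4 and ketamine were then compared directly, at unknown doses and by different routes. Of 18047 genes 0 were called by edgeR (0%), with 1648 (9.13%) at an unadjusted p below 0.05, and DESeq2 called 66 and limma 1. Of the 45 members 0 were called by any of the 3 tools, with 4 at an unadjusted p below 0.05. Their values leaned to ketamine, with 43 of 45 lower in K4 and a median of −0.093. Short genes as a whole leaned the same way. Of all 1332 tested genes under 1 kb, 899 were lower in K4, with a median of −0.078. Of the 29 members under 1 kb, 28 were lower, with a median of −0.096. In 10 members every K4 library lay below every Ketamine library, against 8.29% of all tested genes, and in 0 above, against 9.49%.

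The member with the smallest p was Ndufs3, which stood at 59.8, 61.4 and 62.6 CPM in K4 and 68.5, 76.2 and 68.6 in Ketamine (log2 change −0.21, SE 0.059, adjusted p = 0.34 by edgeR, 95% interval −0.34 to −0.087). Ndufs6-ps1 followed (log2 change −1.12, SE 0.35, adjusted p = 0.38 by edgeR), then Ndufb3 (log2 change −0.24, SE 0.077, adjusted p = 0.38 by edgeR, 95% interval −0.40 to −0.074). Ndufs5 was the fourth at an unadjusted p below 0.05 (−0.25). The 2 members that were higher in K4 were Ndufaf1 (0.050) and Ndufb11 (0.0066), an accessory subunit of the membrane arm at 38.1, 37.9 and 33.9 CPM in the Control libraries, at 41.6, 40.2 and 40.5 in those of K4 and at 40.7, 43.6 and 37.6 in those of Ketamine.

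For Ndufb2 the difference between the drugs was −0.021 (95% interval −0.18 to 0.14) and for Ndufa2 −0.084 (95% interval −0.28 to 0.11). These intervals allow differences of more than 0.1 on the log2 scale in either direction, so a lack of calls does not show that the drugs acted alike. With the length offset the median between the drugs was −0.042, beside −0.015 over all tested genes and −0.028 over those under 1 kb.

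Libraries also differed in markers of cell types. Over all tested genes, 3.8% were called lower after K4 and 9.75% after ketamine. The summed level of 5 astrocyte markers was 2577 to 4127 CPM in Control, 2196 to 2430 in K4 and 1977 to 2164 in Ketamine. Of the 5, 2 were called lower after K4 and 4 after ketamine. Gfap went the other way, at 378 ± 92.5 CPM in Control, 411 ± 33.0 in K4 and 395 ± 15.8 in Ketamine (SD, n = 3). For 4 endothelial markers it was 204 to 299.6, 169 to 194 and 131 to 163 CPM, with 2 of 4 called lower in each comparison, and for 4 microglial markers 179 to 269, 179 to 184 and 159 to 164, with 1 and 3 of 4 lower. For 3 oligodendrocyte precursor markers it was 141 to 223, 122 to 141 and 109.9 to 121 CPM, with 0 and 2 of 3 lower. After K4, 1 marker each of the endothelial, microglial and precursor lists had a positive value. Control replicate 2 set the upper end of the Control range in the astrocyte, endothelial, microglial and precursor sums. The other Control libraries stood at 2939 and 2577 CPM for astrocytes and 236 and 204 for endothelial cells. For microglia they stood at 206 and 179 CPM, and for precursors at 158 and 141.

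The 4 neuronal markers summed to 2369 to 2946 CPM in Control, 2750 to 3061 in K4 and 2943 to 3014 in Ketamine, with 0 called in either comparison. The lowest neuronal sum, 2369 CPM, was that of Control replicate 2. Oligodendrocyte markers, 5 in number, summed to 1606 to 2682, 2085 to 2840 and 1435 to 1870 CPM, with 1 called higher after K4, and 3 blood markers to 85.0 to 164, 96.5 to 179.9 and 66.4 to 82.2 CPM with 0 called. No marker was at 0 in any library. Total counts were higher in Control (40863756 to 42731004) than in K4 (28495399 to 32735785) and Ketamine (27122207 to 33837450). The part of cell makeup and of depth in the Nduf values was not tested.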

How the data were processed

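Medial prefrontal cortex RNA was sequenced in 9 libraries, 3 per group, with a strand-keeping kit for polyadenylated RNA, per the labels' protocols. The submitters' processing notes name build rn6 and, without their roles, the tools HISAT2 (2.1.0), StringTie (2.1.3b), Trimmomatic and bcl2fastq (2.20.0). The authors deposited 1 table of raw counts per gene. Which tool and strand setting made it is not stated in the labels, so antisense or overlapping partners cannot be told apart. FPKM and TPM were deposited library by library, per the file headers.

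The counts were fitted with edgeR 4.0.16 in R 4.3.3 (TMM scaling, filterByExpr with minimum count 10 and minimum total 15, robust quasi-likelihood F test, 1 term per group, all 9 libraries), which tested 18047 genes. Adjusted p-values are Benjamini-Hochberg values over all of these genes, and calls are those below 0.05. SE was the log2 fold change over the root of F, and CPM are TMM-scaled. The script was first tested on simulated data. Of genes given a 1.25-fold change, it called 30.6% for K4 against Control, 12.2% for Ketamine against Control and 6% between the drugs. Changes of that size can therefore go uncalled. Implied length was the count divided by FPKM and library total, as the median over libraries with at least 10 counts, and the length offset was a spline with 4 degrees of freedom of log2 CPM deviation on log2 length in each library. DESeq2 1.42.0 and limma 3.58.1 (log2 of FPKM + 1) served as alternatives. Gene names came from the table and from a RefSeq table of build GRCr8, used for names and promoters, where all 45 members were found and 44 had the same symbol.

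Values are given for the called members with the smallest p in each comparison and direction (up to 6, or 2 where none was called), the core subunits (1 is not reported here or drawn in the figures of single members), the assembly factor with the smallest p, Ndufa4 and Ndufa4l2, and every member called with the length offset. Other members are given by range or in passing, and were named after their values were seen. The members, lists and rule were chosen with earlier results of these data known. Depth ranged from 27122207 to 42731004 counts per library, the common biological coefficient of variation was 10.2%, and no 2 libraries of a group agreed within sampling noise.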

Additional observations from a re-analysis of the deposited data

How the results depend on the processing

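RLE or upper quartile scaling, DESeq2, no filter on low counts, omission of mitochondrial genes and the replicate block each kept the called members within 1.5 times of the reported 3 after K4 and 20 after ketamine, and the direction of the medians held in all settings run. The calls after K4 were 0 with the length offset, with only the 2 groups fitted, with limma on unfiltered FPKM and with the block plus offset, and 0 to 6 when 1 library was left out. After ketamine they were 1 with the offset, 1 with block plus offset, 12 with only the 2 groups, and 4 to 19 when 1 library was left out. Between the drugs they were 0 throughout. The median of the members after K4 was 0.028 with the offset and 0.028 with block plus offset, 0.165 by limma on log2(FPKM + 1) with or without the filter, and 0.173 with a pseudocount of 0.1. It was 0.078 and 0.078, 0.253 and 0.257 after ketamine in the same order, and −0.042 and −0.043 between the drugs with the offset without and with the block. Leaving out libraries moved it within 0.091 to 0.132, 0.195 to 0.230 and −0.120 to −0.066. The offset removes a trend fitted on the same counts, and the cause of the trend was not tested.

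The labels do not say whether the replicate numbers of the titles pair the libraries, and a cause of pairing was not tested. Correlations of same-numbered deviations were weak, from −0.0067 to 0.16. With the number as a block, 4, 18 and 0 members were called. Best matches were sought from Control to K4, from Control to Ketamine and from K4 to Ketamine, and not in reverse. In these each library correlated best with its own number, except Control replicate 3 with the Ketamine libraries. With the later RefSeq names, an alternative chosen after seeing the data, 4, 23 and 0 of 48 genes were called.

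Over all genes, the 1095 calls after K4 became 1886 with DESeq2, 354 with the offset, 451 with block plus offset, 452 with 2 groups, 718, 713 and 7 by limma (pseudocount 1, 0.1 and unfiltered), and 174 to 1548 without 1 library. The 3013 after ketamine became 1342, 1410 with block plus offset, 1569 by unfiltered limma, and 1177 to 3191 without 1 library. The 0 between the drugs became 66 with DESeq2, 6 unfiltered, 27 with 2 groups, 1 with the block, 2 with block plus offset, 1 by limma, and 0 to 27 without 1 library. The split of higher against lower calls, 409 to 686 and 1254 to 1759 as reported, was 503 to 215 and 1690 to 988 by limma, and 527 to 563 and 1587 to 1549 with upper quartile scaling.

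With the offset the negative members went from 5 to 18 after K4 and from 3 to 12 after ketamine, and the positive ones from 2 to 8 between the drugs, and no called member changed sign. Among the members described in full, Ndufv2 was, with the offset without and with the block, at −0.065 and −0.064 after K4 and −0.016 and −0.016 after ketamine, and Ndufa4l2 at −0.074 and −0.075 after ketamine. Ndufs1 after K4 was at −0.039 without Control replicate 2 and −0.017 without K4 replicate 2, and after ketamine at −0.018 without Control replicate 2 and −0.00014 without Ketamine replicate 2, with ranges over these fits of −0.039 to 0.056 and −0.018 to 0.071. Ndufa4l2 after ketamine was at −0.045 without Control replicate 1 and −0.067 without Ketamine replicate 1 (range −0.067 to 0.28). Ndufb11 between the drugs was at −0.0082 without K4 replicate 1 and −0.046 without Ketamine replicate 3 (range −0.046 to 0.060). Genes under 50 counts per library, such as Ndufs6-ps1, are limited by depth.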
